A study of Mus musculus with 12 samples.

Results

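The genes described are the cytosolic ribosomal protein genes, which encode the protein part of the 60S and 40S ribosomal subunits. They were taken as every protein-coding gene whose symbol is Rpl or Rps with a number, with or without a closing a, x or l, together with Rplp0, Rplp1, Rplp2 and Rpsa. This gave 80 of 51826 genes in the files, 49 of the large subunit and 31 of the small subunit, with 446 annotated transcripts. The study measured polyadenylated RNA of mouse thymus in 12 libraries. There were 9 libraries of T cell acute lymphoblastic leukemia (T-ALL) from mice carrying a wild type IL-7Rα, a cytokine receptor chain of T cell precursors, under tetracycline-inducible control, and their titles name induction with Dox. The other 3 libraries were thymus of healthy control mice. Both groups are labelled as strain F5, and the labels give no age, no promoter or cell type for the inducible transgene, and no statement that each library is a separate animal. The p-values below therefore measure the spread between these libraries, which may be technical in part.

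Each ribosome carries a single copy of nearly every ribosomal protein, and the P-stalk proteins Rplp1 and Rplp2 are the known exception. In vertebrates the messages of these genes begin with a C followed by a run of pyrimidines, the terminal oligopyrimidine (TOP) motif, through which mTOR and Larp1 adjust their translation together. In human T-ALL, RPL5, RPL10, RPL11 and RPL22 are mutated or deleted in some patients, and loss of Rpl22 in mice blocks the development of αβ T cells.

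Promoters are shown for the members that stood out below: Rps24 and Rpl13a for their high level, Rps12, Rpl35 and Rpl12 for their variation, and Rplp0 for its level in 1 tumor. Each line has 60 bases before and 20 after the RefSeq start on GRCm38.p6, read 5′ to 3′ along the gene. Capitals mark a run of 5 or more C or T that overlaps the bases from 5 before to 10 after the start.
Rps24, chr14:24490618-24490697, plus strand: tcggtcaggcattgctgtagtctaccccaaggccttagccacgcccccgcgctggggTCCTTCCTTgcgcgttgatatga
Rpl13a, chr7:45128726-45128805, minus strand: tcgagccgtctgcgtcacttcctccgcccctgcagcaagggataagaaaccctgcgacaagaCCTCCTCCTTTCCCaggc
Rps12, chr10:23787190-23787269, minus strand: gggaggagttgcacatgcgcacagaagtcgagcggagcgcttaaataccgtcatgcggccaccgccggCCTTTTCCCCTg
Rpl35, chr2:39005112-39005191, minus strand: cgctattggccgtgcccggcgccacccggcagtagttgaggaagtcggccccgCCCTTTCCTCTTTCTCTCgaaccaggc
Rpl12, chr2:32961652-32961731, plus strand: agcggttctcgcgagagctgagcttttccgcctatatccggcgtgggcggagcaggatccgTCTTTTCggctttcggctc
Rplp0, chr5:115559407-115559486, plus strand: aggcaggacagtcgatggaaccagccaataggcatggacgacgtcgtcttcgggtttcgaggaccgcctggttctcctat
The promoter table held 60 of the 80 members. Such a pyrimidine run was found for 40 of these 60 members, or 66.7%, against 42.0% of 26965 other genes. The stricter form, a C at the annotated start followed by at least 4 C or T, was found for 13 members, or 21.7%, against 2.97% of other genes. Rpl35 had this form. The 7 letters CCGGAAG, searched on both strands from 250 bases before to 50 after the start, stood in 41.7% of the members' windows and 9.86% of the others. For Rplp0 no such run overlapped the bases from 5 before to 10 after the printed start. A run of C or T, ttctcct, stands just beyond them within the printed bases, and is unmarked for its position only.

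Library composition differed and followed the groups in part. Tumors 1 to 6 had totals of 18431516 to 34769946 estimated counts, tumors 7 to 9 had 11617724 to 17158731, and controls had 8133152 to 12019924. The mitochondrial share of the counts was 31.6% to 69.3% for tumors 1 to 6, 2.54% to 11.1% for tumors 7 to 9 and 0.0948% to 6.73% for controls. The 1450 olfactory and vomeronasal receptor genes, which thymus should not express, had median levels of 0 to 0.106 TPM (a level per transcript length with an equal total in every library) in tumors 1 to 6, 0.443 to 1.60 TPM in tumors 7 to 9, against 1.39 to 1.88 TPM in controls. Of 8 T lineage markers such as Cd3e and Lck, 6 to 8 lay above the 95th percentile of these receptors in tumors 1 to 6, 1 to 4 in tumors 7 to 9, against 0 to 3 in controls. In the controls few T lineage messages thus stood above the receptor level, and the labelled tissue could be checked only weakly. The 5 markers of thymic epithelium lay above that percentile in none of the 12 libraries. Tumors 7 to 9 carry the same labels as tumors 1 to 6, and the part of these differences in the results below was not tested.

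The ribosomal protein genes took a small part of every library, and the tumors lay on both sides of the controls. They held 0.529%, 0.463%, 0.364%, 0.330%, 1.27% and 0.924% of the estimated counts in tumors 1 to 6. Tumors 7 to 9 had 0.0474%, 0.0735% and 0.0608%, and controls 1 to 3 had 0.104%, 0.252% and 0.169%. Every one of tumors 1 to 6 was above every control, and every one of tumors 7 to 9 was below every control. The means were 0.646% ± 0.371 (SD, n = 6) in tumors 1 to 6, 0.0606% ± 0.0131 (SD, n = 3) in tumors 7 to 9 and 0.175% ± 0.0740 (SD, n = 3) in controls. Counting error was far smaller, with a 95% Wilson interval of 1.26% to 1.27% in tumor 5. With mitochondrial counts left out, the share was 0.707% to 2.16% in tumors 1 to 6, 0.0533% to 0.0808% in tumors 7 to 9, against 0.112% to 0.253% in controls. On the TPM scale the groups came closer, with 0.645% ± 0.421 (SD, n = 6) in tumors 1 to 6, 0.0628% ± 0.0133 (SD, n = 3) in tumors 7 to 9 and 0.260% ± 0.113 (SD, n = 3) in controls, and tumors 1 to 6 overlapped with the controls.

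**Figure D1:**
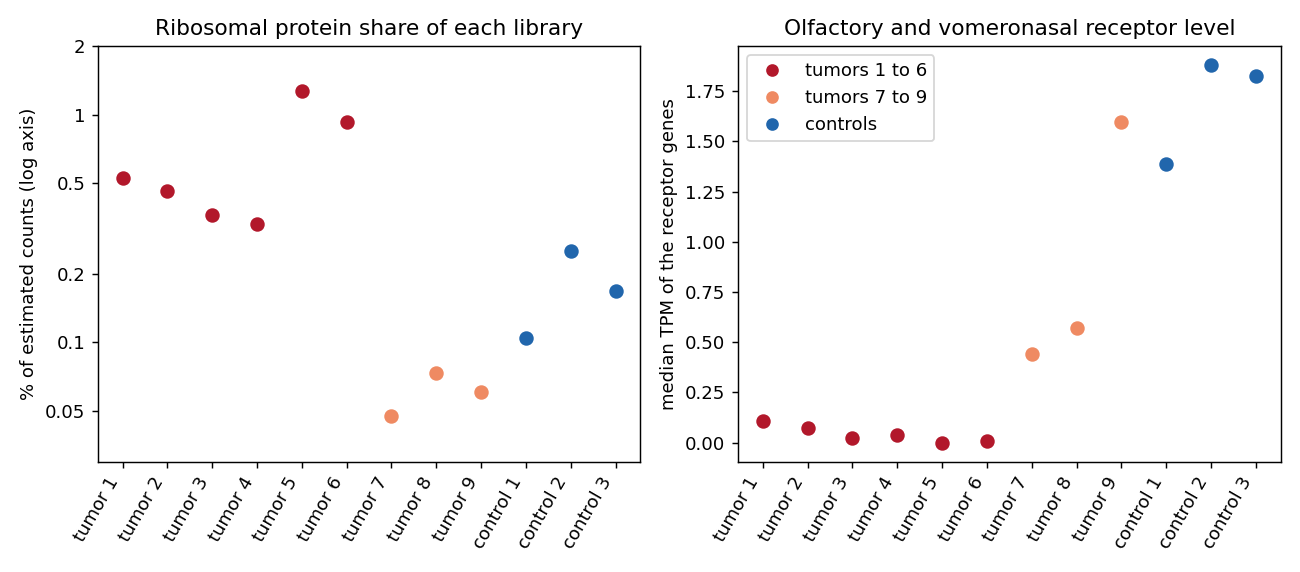
Left, the share of each library's estimated counts on the 80 ribosomal protein genes, on a log axis. Right, the median TPM of the 1450 receptor genes, 1 point for each library. Tumors 1 to 6 had the highest ribosomal protein shares, 0.330% to 1.27%, and the lowest receptor medians, at most 0.106 TPM.

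Against the receptor background, 77 or 78 of the 80 members lay above the receptors' 95th percentile in each of tumors 1 to 6. In tumors 7 to 9 the numbers were 37, 36 and 8 members, and in controls 43, 68 and 58. The composition of the family could thus be read best in tumors 1 to 6. The large subunit genes had 1.36 to 1.93 times the summed TPM of the small subunit genes in tumors 1 to 6, 1.66 to 2.05 times in tumors 7 to 9, against 1.24 to 1.79 times in controls. The groups overlapped in this ratio.

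With all 12 libraries, no member passed the threshold of the tumor against control comparison, although 78 of 80 had a higher fitted level in tumors. The test was edgeR's quasi-likelihood F test with Benjamini-Hochberg adjustment over 40521 genes, and all 80 members passed its filter on low counts. It called 0 members higher and 0 lower at an adjusted p below 0.05, against 0% of all tested genes higher and 0.00494% lower. The smallest adjusted p of a member was 0.128. At an unadjusted p below 0.05 there were 74 members, all higher in tumors, while 18.0% of all tested genes had such a p in either direction. The median log2 fold change of the members was 3.54, tumor over control, against -0.45 for all tested genes. This fit scaled libraries by trimmed-mean (TMM) factors of 0.283 to 0.853 in tumors 1 to 6 and 2.51 to 3.16 in controls. With library totals 4 members had such an unadjusted edgeR p, all higher, where 7859 of 40521 tested genes had one. With nuclear protein-coding totals there were 40, all higher, where 7786 of 35838 tested genes had one. DESeq2 on the same counts called 66 members higher and 0 lower, where it called 9.97% of all tested genes higher. On log2(TPM + 1), where mitochondrial messages are part of the total, limma gave the members a median of 0.0689 against -1.14 for all tested genes. It called 0 members higher and 4 lower (Rpl10, Rpl3l, Rpl10l and Rpl39l), against 0.323% of all tested genes higher and 79.3% lower. The size of the difference thus depended on the scaling. In bulk libraries, more cells of a type and more RNA per cell cannot be told apart.

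The 2 sets of tumors gave medians of opposite sign. With TMM scaling and without tumors 7 to 9, 76 of 80 members rose and none fell, against 19.6% of 38567 tested genes that rose and 20.3% that fell. The median of the members was then 3.80, and that of all genes -1.29. Markers of T cells moved with the family in this fit, with 6 of 8 higher and a median of 5.03. None of 4 B cell, 5 thymic epithelium, 5 erythroid and 3 muscle markers was called higher. Their medians were -1.62, -1.60, -2.14 and -1.14. The 4 myeloid markers had 5 gene entries, since Itgam was entered more than once. Of these entries 1 was called higher and 0 lower, with a median of 0.87. Of the fibroblast and endothelium markers 2 of 5 were higher and 1 lower, with a median of -0.23. The part of cell content in the result was not tested. The 4 members not called were Rpl10 and the paralogs with restricted expression, Rpl3l, Rpl10l and Rpl39l. With tumors 7 to 9 alone against the controls, 0 members were called in either direction, against 0.0247% of tested genes higher and 0.0247% lower. There the median of the members was -0.65, and 30 members had an unadjusted p below 0.05, all lower in tumors 7 to 9, while 9.04% of all tested genes had such a p in either direction. A higher level of this family in the tumors therefore rests on tumors 1 to 6, the libraries with the high mitochondrial share.

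Among the T-ALL genes, Rpl22 had the largest share of the family's TPM in tumors 1 to 6, 1.98% ± 0.538 (SD, n = 6). Its level in CPM (counts scaled by library size and a trimmed-mean, or TMM, factor) was 184, 145, 119, 180, 361 and 88.4 in tumors 1 to 6, 7.61, 4.69 and 2.51 in tumors 7 to 9, and 9.92, 7.63 and 4.93 in controls. Tumors 1 to 6 did not overlap with the controls, and tumors 7 to 9 did. Its log2 fold change was 4.02 ± 1.40 (SE) (edgeR adjusted p = 0.128) over all libraries, and 4.34 ± 0.60 (SE) with an adjusted p of 0.000103 without tumors 7 to 9.

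Rpl5 and Rpl11 form with the 5S rRNA the particle that can hold back Mdm2, the ubiquitin ligase of p53. Rpl11 had 127, 184, 123, 136, 81.0 and 151 CPM in tumors 1 to 6, 4.33, 5.24 and 3.81 CPM in tumors 7 to 9, and 9.49, 8.03 and 6.26 CPM in controls. Rpl5 had 20.9, 29.4, 47.1, 34.9, 132 and 48.9 CPM in tumors 1 to 6, 5.83, 3.93 and 2.04 CPM in tumors 7 to 9, and 5.92, 4.50 and 2.06 CPM in controls. With these TMM-scaled values both genes lay above every control in tumors 1 to 6. In TPM both overlapped with the controls, Rpl11 with 38.3 to 122 in tumors 1 to 6 against 41.0 to 79.9. Rpl5 had 4.73 to 55.1 TPM against 6.23 to 13.2 in controls. In CPM without the TMM factor Rpl5 overlapped and Rpl11 did not. By edgeR over all libraries their log2 fold changes were 3.51 ± 1.25 (SE) for Rpl11 and 3.12 ± 1.12 (SE) for Rpl5, with adjusted p of 0.132 and 0.135. Without tumors 7 to 9 the adjusted p was 2.17e-05 for Rpl11 and 0.00192 for Rpl5. The 2 proteins enter the ribosome together, yet the share of the family's TPM was 1.25% ± 0.316 (SD, n = 6) for Rpl11 in tumors 1 to 6 and 0.228% ± 0.127 (SD, n = 6) for Rpl5. Only 18.4% of the Rpl5 counts in tumors 1 to 6 fell on transcripts annotated as protein-coding, against 81.7% for Rpl11.

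Rpl10, which joins the large subunit late in its assembly, did not follow the family. It had 21.2, 11.2, 23.5, 11.4, 24.0 and 44.4 CPM in tumors 1 to 6, 5.02, 5.24 and 3.95 CPM in tumors 7 to 9, and 3.71, 15.5 and 11.2 CPM in controls, and tumors 1 to 6 overlapped with the controls. Its log2 fold change was 0.71 ± 0.73 (SE) (edgeR adjusted p = 0.642) over all libraries, and 0.89 ± 0.56 (SE) with an adjusted p of 0.187 without tumors 7 to 9. As a share of the family it was 0.111%, 0.0637%, 0.205%, 0.0835%, 0.0911% and 0.312% in tumors 1 to 6, and 0.669%, 1.75% and 1.86% in controls. Its pseudogene Rpl10-ps3 held 995, 991, 297, 529, 2527 and 938 counts in tumors 1 to 6. In the controls Rpl10-ps3 held 0, 23.3 and 0.0756 counts. With its 6 named copies added, Rpl10 took 0.519%, 0.727%, 0.492%, 0.420%, 0.398% and 0.789% of the family in tumors 1 to 6 and 0.600%, 1.54% and 1.48% in controls, and the groups overlapped.

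Within tumors 1 to 6 the members' shares of the family's TPM spread widely although nearly all of their proteins occur once in each ribosome. The highest mean shares belonged to Rpl13a with 4.98% ± 1.91 (SD, n = 6), Rps24 with 4.46% ± 1.18, Rpl21 with 4.14% ± 0.949, Rpl23a with 3.47% ± 0.705 and Rpl26 with 3.31% ± 0.677. Rpl23a and Rpl26 sit at the exit of the peptide tunnel. The differences between neighbours in this order were smaller than their spread. At the other end were Rpl39l, Rpl10l and Rpl3l below 0.02%, then Rpl12 with 0.128% ± 0.0970, a protein at the base of the stalk, and Rpl10 with 0.144% ± 0.0960.

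**Figure D2:**
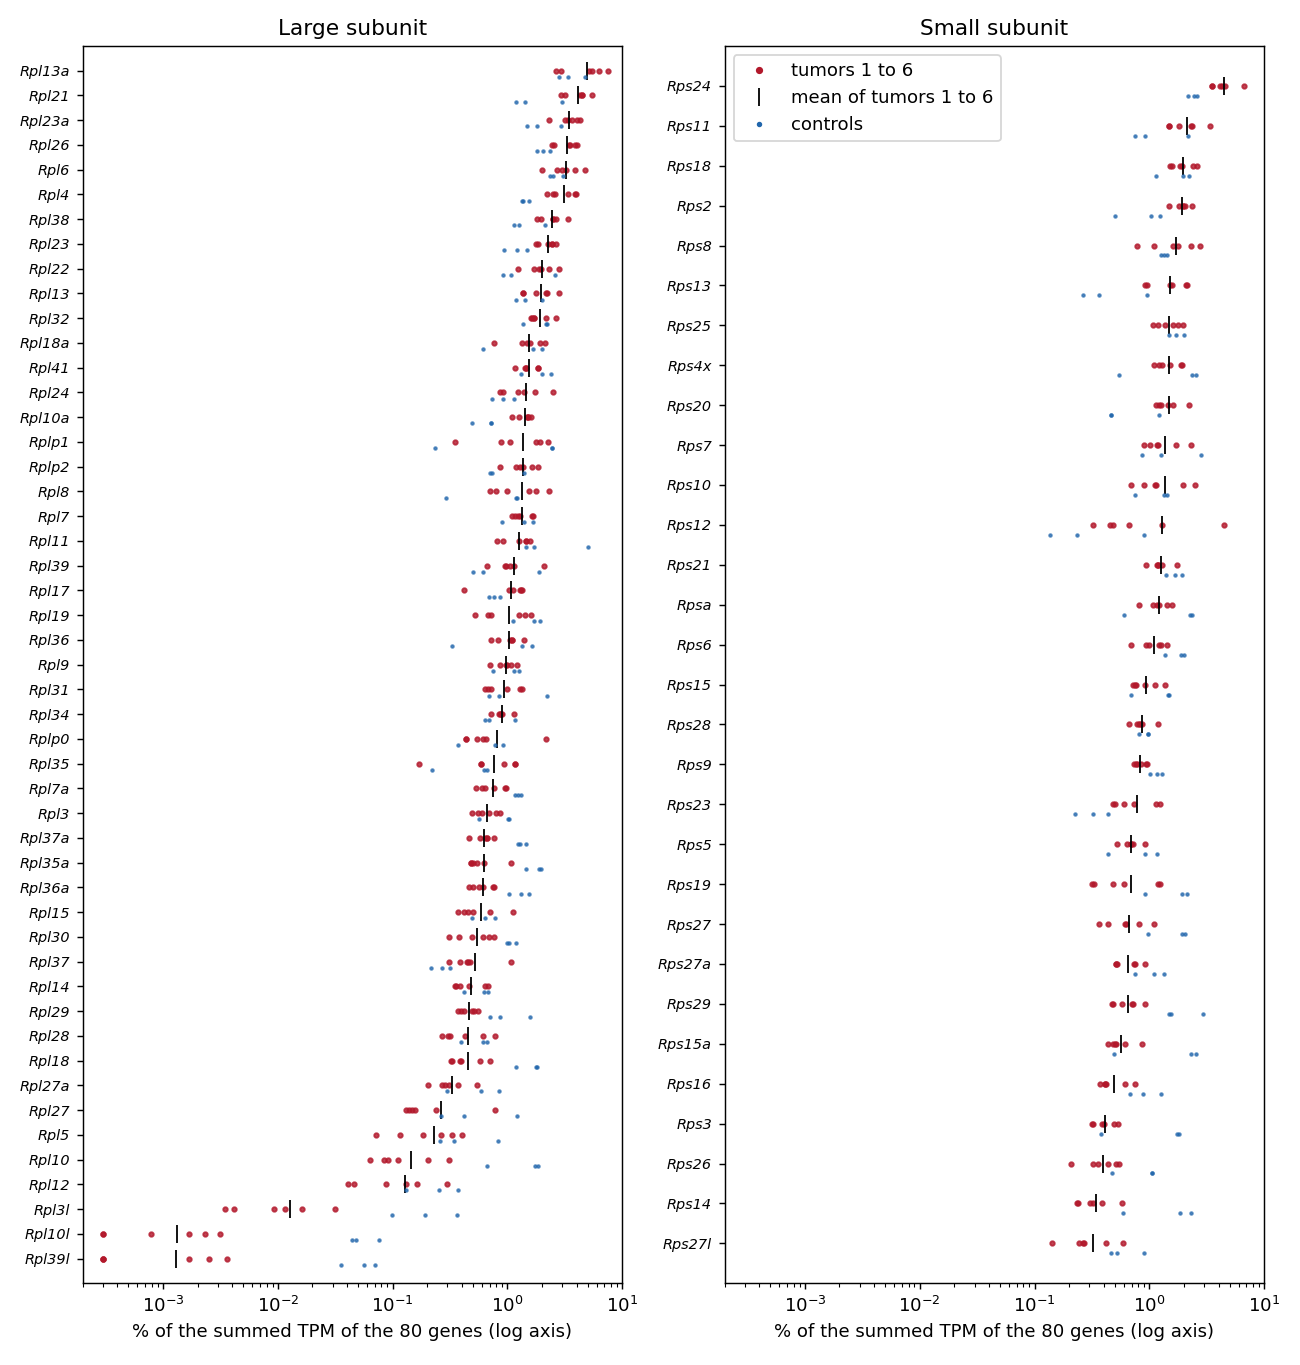
Share of 79 members in the summed TPM of the 80 genes, on a log axis, with large subunit genes on the left and small subunit genes on the right. Red points are tumors 1 to 6, the bar is their mean and blue points are controls, with values of 0 drawn at the far left. Most members lay between 0.2% and 5%, and Rpl3l, Rpl10l and Rpl39l stood far below the others.

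The first place of Rpl13a rested on 1 transcript that does not encode the protein. Rpl13a lies at chromosome 7, 45125558 to 45128761, on the minus strand of GRCm38. Its retained-intron transcript Rpl13a-213, with 464 bases, held 72.7% (tumor 6) to 91.6% (tumor 5) of the gene's counts in tumors 1 to 6, with a mean of 83.0%. It held 78.5%, 37.5% and 19.9% in tumors 7 to 9, and 61.8%, 0% and 7.04% in controls. On protein-coding transcripts alone the gene ranked 60th of 80 rather than first, with a share of 0.314%. Rps18, of the small subunit head, was a stronger case, with 0.536% of its counts in tumors 1 to 6 on protein-coding transcripts and most on the retained-intron form Rps18-210. Over the family, 22 members had under 50% of their counts on protein-coding transcripts in tumors 1 to 6, and 43 members had over 90%. Retained-intron transcripts took 12.1% to 22.0% of the family's counts in tumors 1 to 6, 19.6% to 28.8% in tumors 7 to 9, against 11.96% to 28.6% in controls.

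Rps24, whose human counterpart is mutated in Diamond-Blackfan anemia, kept its high place when only protein-coding transcripts were counted, and then ranked first. It lies at chromosome 14, 24487125 to 24496959, on the plus strand. Its share of the family was 6.69%, 4.60%, 3.49%, 4.33%, 3.52% and 4.16% in tumors 1 to 6, 2.50%, 1.88% and 1.24% in tumors 7 to 9, and 2.15%, 2.43% and 2.61% in controls. Tumors 1 to 6 lay above all controls. The transcript form differed between libraries. The longer form Rps24-202, with 837 bases, held 25.2%, 27.1%, 39.8%, 46.6%, 86.8% and 34.1% of the gene's counts in tumors 1 to 6, 85.1%, 66.5% and 60.3% in tumors 7 to 9, and 88.5%, 17.7% and 23.4% in controls. The remainder fell on Rps24-201, with 468 bases. Rps24-202, annotated as protein-coding in the deposited data, had no match by identifier in GENCODE M21, the release used here for coordinates. Tumor 5, tumor 7 and control 1 were alike in the high share of the longer form.

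Named copies of the ribosomal protein genes drew many counts. The 276 genes whose symbol carries a -ps ending held 14.2% to 20.3% as many counts as the members in tumors 1 to 6, 24.2% to 38.6% in tumors 7 to 9, against 22.4% to 26.5% in controls. The copies matched to single members also included genes without that ending, such as Rps12l1 for Rps12 and Rpl37rt for Rpl37. For 7 members the matched copies held over 50% of the joint counts of tumors 1 to 6. These were Rpl28 with 85.0%, Rpl14 with 83.6%, Rpl10 with 78.6%, Rpl31 with 75.3%, Rps12 with 55.1%, Rpl19 with 54.4% and Rpl36a with 52.2%. Rpl14-ps1 alone held 4912, 3874, 2840, 3243, 13090 and 3930 counts in tumors 1 to 6, and 97.4, 168 and 66.9 in controls. With the copies added, Rpl31 became the most abundant member with a share of 5.15%, where it had ranked 42nd, and Rps12 came next with 3.90%. Transcript estimates divide reads that fit a gene and its copy equally well, so the split within each of these pairs is uncertain.

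**Figure D3:**
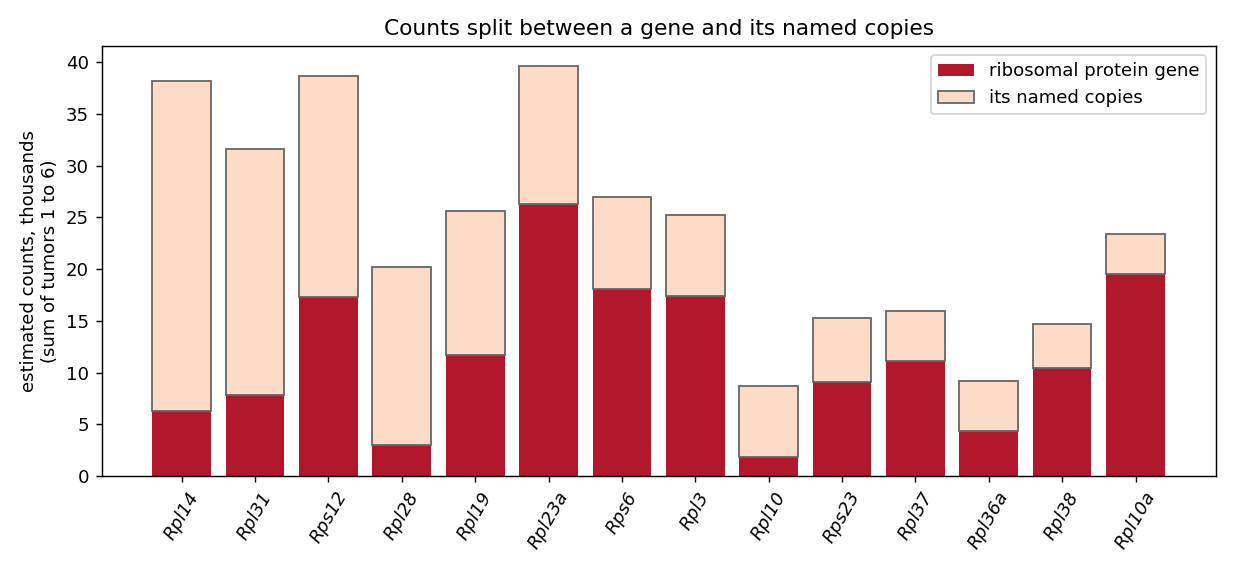
Estimated counts summed over tumors 1 to 6 for the 14 members whose named copies held the most counts, with the gene in red and its copies in pale stacked above it. In Rpl14, Rpl31, Rpl28, Rpl19, Rps12, Rpl10 and Rpl36a the copies held more than 50% of the bar.

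Over tumors 1 to 6 the members kept their proportions more closely than other genes did. The SD of a member's log2 share of the family had a median of 0.40 over the 77 members with at least 50 counts in each tumor, and ranged from 0.16 to 1.39. The same measure had a median of 0.83 over 14325 other genes with at least 10 counts in each of these tumors. Part of this follows from the construction, since the members form the total they are measured against, and they also have more counts. The most even members included Rps9, with shares of 0.729% to 0.945%, and Rpl10a, Rpl34 and Rps2, all with an SD of 0.22 or less. The share of Rpl10a was 1.10% to 1.61% in tumors 1 to 6, highest in tumor 3 and lowest in tumor 5.

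Rps12 varied most, with an SD of 1.39. Its share was 1.29%, 0.321%, 0.456%, 0.662%, 4.51% and 0.487% in tumors 1 to 6, so tumor 5 was 14.1 times as high as tumor 2. In tumor 5, 76.2% of its counts, 10992, fell on Rps12-204, a transcript annotated for nonsense-mediated decay. With its 24 named copies added, the share was 3.68%, 3.23%, 2.93%, 4.06%, 6.37% and 3.12% and the SD fell to 0.41. The next in order were Rpl12 with an SD of 1.11, Rpl35 with 1.05, Rplp1 with 1.00 and Rpl27 with 0.99.

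Tumor 5 set most of these extremes. It had the lowest share of Rpl35, a protein of the tunnel exit, with 0.168% against 0.588% to 1.17% in the other 5 tumors. It also had the lowest share of Rplp1, with 0.352% against 0.872% to 2.26%, and the highest share of Rpl27, with 0.786% against 0.130% to 0.238%. Without tumor 5 the SD was 0.75 for Rps12, 0.50 for Rpl35, 0.60 for Rplp1 and 0.34 for Rpl27. Tumor 5 was also the deepest library. Across 72 members, Spearman's rho between a member's deviation in a library and the GC content of its main protein-coding transcript was -0.34 in tumor 5, -0.34 in tumor 7 and 0.29 in tumor 6. Members within a library share its depth and base composition, and the part of GC content in these deviations was not tested beyond a linear correction, which left the median SD at 0.41.

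**Figure D4:**
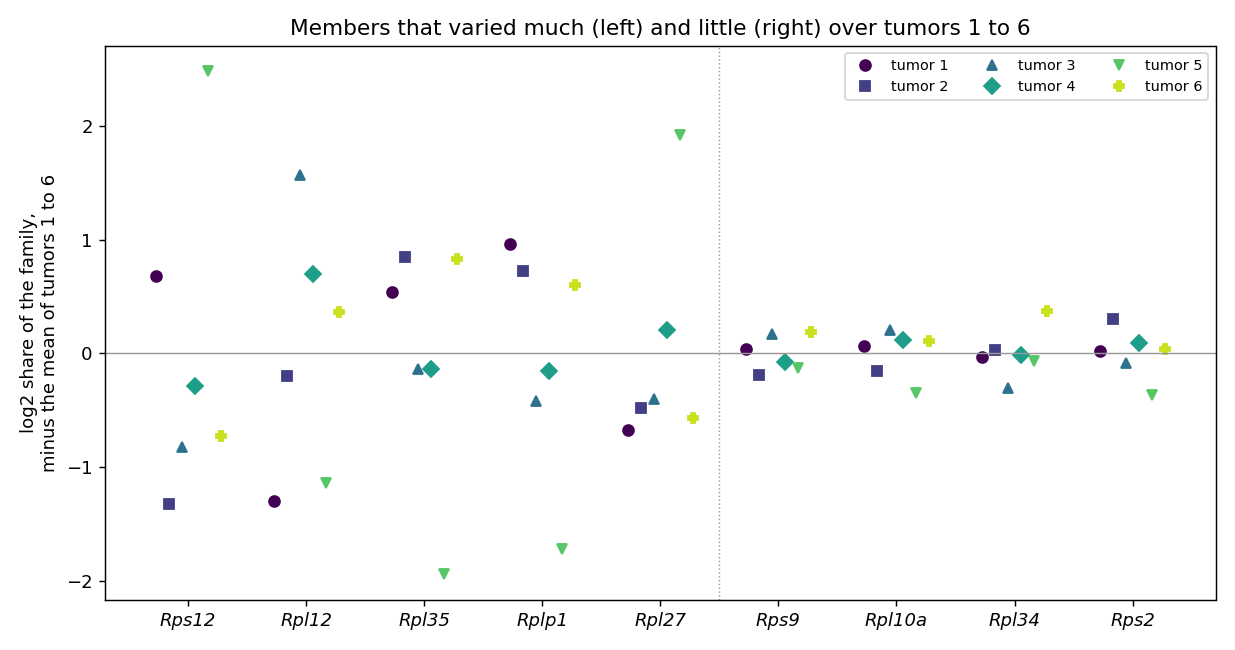
The log2 share of the family in each of tumors 1 to 6, minus the mean of the 6, for the 5 members with the largest SD and 4 of the most even. Tumor 5 was highest for Rps12 and Rpl27 and lowest for Rpl35 and Rplp1, while the 4 members on the right stayed within 0.4 of their mean.

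The whole profile of the family gave a similar order of libraries. Over 77 members, Spearman's rho between the member levels of any pair among tumors 1 to 6 was 0.59 to 0.92. It was 0.95 between controls 2 and 3, but 0.20 and 0.27 between control 1 and these, while control 1 and tumor 7 had 0.83. Control 1 was therefore closer to tumor 7 than to the other controls in how its ribosomal protein messages were divided.

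The stalk proteins carry the site that recruits translation factors. Rplp1 and Rplp2, present in more than a single copy in each ribosome, had 1.37% ± 0.728 (SD, n = 6) and 1.36% ± 0.345 of the family in tumors 1 to 6, and 1.72% ± 1.28 and 0.944% ± 0.400 (SD, n = 3) in controls. Their anchor Rplp0 had 0.436%, 0.651%, 0.614%, 0.434%, 0.549% and 2.16% in tumors 1 to 6, and 0.373%, 0.908% and 0.773% in controls. Tumor 6 stood apart from the other 5 tumors, and the remaining tumors overlapped with the controls. Rpsa, the small subunit protein also known as the laminin receptor, had 1.21% ± 0.272 (SD, n = 6) in tumors 1 to 6 and 1.74% ± 0.981 (SD, n = 3) in controls.

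Among other small subunit members, Rps19, Rps26, Rps6, Rps27a and Rps14 each had a lower mean share in tumors 1 to 6 than in controls. Rps19, the most often mutated gene of Diamond-Blackfan anemia, had 0.694% ± 0.421 (SD, n = 6) in tumors 1 to 6 and 1.65% ± 0.648 (SD, n = 3) in controls. Rps26 had 0.394% ± 0.125 in tumors 1 to 6 and 0.854% ± 0.333 in controls. Rps6, the substrate of S6 kinase, had 1.09% ± 0.265 in tumors 1 to 6 and 1.74% ± 0.343 in controls. With named copies added, Rps6 took 1.13% to 2.09% in tumors 1 to 6 and 1.14%, 1.67% and 1.64% in controls. The lower share of Rps6 in these tumors thus depended on how reads were split with its copies. Rps27a, which is made as a fusion with ubiquitin, had 0.657% ± 0.168 in tumors 1 to 6 and 1.07% ± 0.305 in controls. Rps14, lost in the human 5q deletion of myelodysplastic syndrome, had 0.232%, 0.325%, 0.387%, 0.239%, 0.302% and 0.581% in tumors 1 to 6, and 0.590%, 2.29% and 1.85% in controls. The 2 groups of Rps14 just failed to overlap, while those of Rps19, Rps26, Rps6 and Rps27a overlapped. With named copies added, Rps19 took 0.267% to 1.02% in tumors 1 to 6 and 1.73%, 2.08% and 2.40% in controls, without overlap.

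To ask which members departed from their family, the tumors were compared with the controls with the family's total as library size. With all 12 libraries edgeR called 0 of 80 members higher and 0 lower, against 0% of 45221 tested genes in each direction, and 1 member had an unadjusted p below 0.05. Without tumors 7 to 9 it called 5 members higher and 20 lower. Of all 41987 tested genes 0.433% were called higher and 92.5% lower in that fit, so a lower call was the rule among genes and 20 of 80 was below it.

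The 5 members called higher relative to the family were Rpl35, Rps23, Rpl4, Rpl21 and Rpl10a. By share, Rpl35 overlapped with the controls, with 0.168% to 1.17% in tumors 1 to 6 against 0.221% to 0.662%. Rpl21 overlapped too, with 2.93% to 5.47% against 1.19% to 3.01%. The share of Rpl10a did not overlap, with 1.10% to 1.61% against 0.492% to 0.716%. With its named copies added it did, with 0.882% to 1.88% against 0.722% to 1.11%. Rps23, at the decoding center, had a log2 fold change of 1.32 ± 0.49 (SE) with an adjusted p of 0.0179 by edgeR. Its share was 1.15%, 1.24%, 0.481%, 0.598%, 0.499% and 0.732% in tumors 1 to 6 and 0.223%, 0.324% and 0.439% in controls. Rpl4, which lines the tunnel, had 1.31 ± 0.45 (SE) with an adjusted p of 0.0124 by edgeR. Its share was 2.61%, 3.95%, 3.90%, 3.39%, 2.20% and 2.52% in tumors 1 to 6 and 1.55%, 1.38% and 1.33% in controls. In neither gene did tumors 1 to 6 overlap with the controls. With named copies added, Rps23 took 1.16% to 1.76% of the family in tumors 1 to 6 and 0.183%, 1.61% and 1.49% in controls, and the groups overlapped. Rpl4 with its copies took 1.76% to 3.06% in tumors 1 to 6 and 1.15%, 1.00% and 0.938% in controls, still without overlap.

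Among the 20 that fell relative to the family, the largest changes were those of Rpl39l, Rpl10l, Rpl3l, Rpl10 and Rpl18. Rpl18 had a log2 fold change of -2.34 ± 0.42 (SE) with an adjusted p of 0.000121 by edgeR. Its share was 0.320%, 0.383%, 0.573%, 0.393%, 0.331% and 0.698% in tumors 1 to 6 and 1.18%, 1.80% and 1.78% in controls, with no overlap. Named copies held 0.459% of the joint Rpl18 counts in tumors 1 to 6, and none was matched to Rps14, which fell by 1.92 ± 0.44 (SE) on the log2 scale with an adjusted p of 0.000747. For Rpl10 the log2 fold change was -3.10 ± 0.53 (SE) with an adjusted p of 7.99e-05, before its copies were added. By TPM share, 7 members were higher in tumors 1 to 6 without overlap with the controls and 14 were lower, against 0.262% and 81.6% of 51207 genes measured against the same total.

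**Figure D5:**
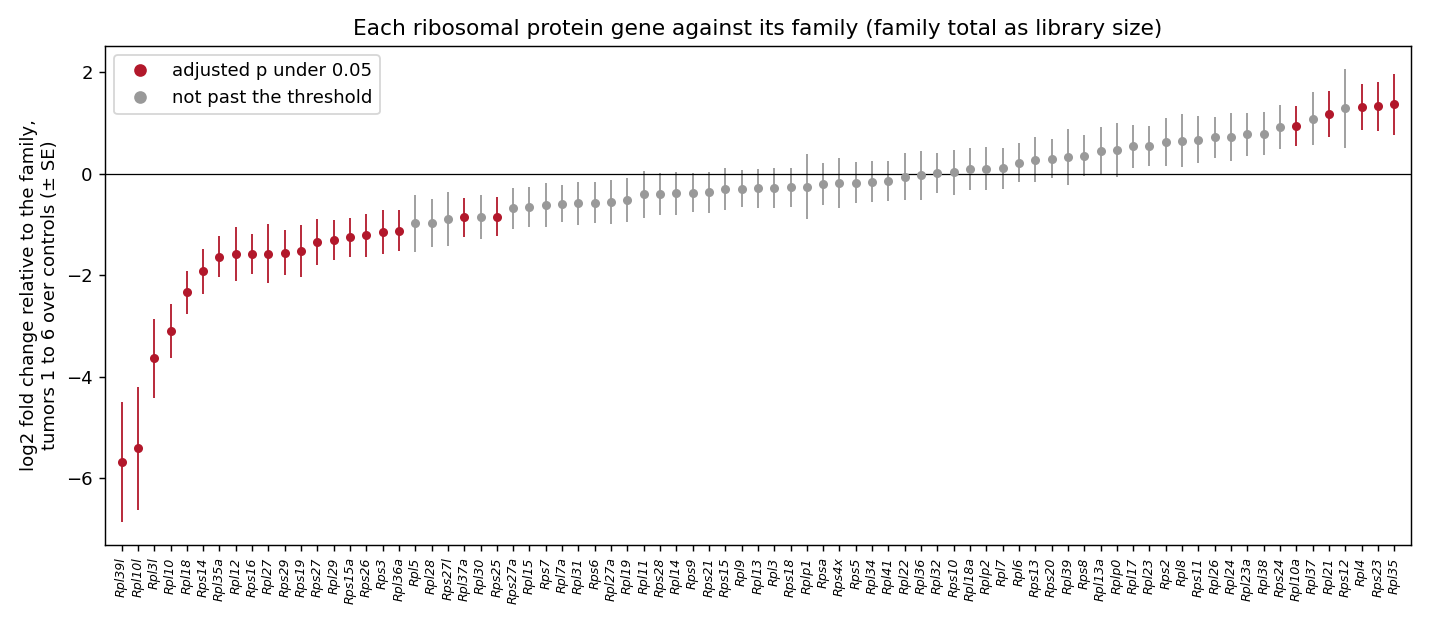
Log2 fold change of 79 members relative to the family, tumors 1 to 6 over controls, with the family total as library size and bars of ± SE. Red points passed an adjusted p below 0.05, 20 members below zero and 5 above it.

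Of the paralogs with restricted expression, Rpl10l and Rpl39l stayed near zero in tumors 1 to 6. Rpl10l, known from testis, had 2, 3, 3, 5, 0 and 0 counts in tumors 1 to 6, 15.7, 27 and 19.4 in tumors 7 to 9, and 11, 17 and 17.5 in controls. Rpl39l, also known from testis, had 4, 2, 0, 2, 0 and 0 counts in tumors 1 to 6, 11, 19 and 16 in tumors 7 to 9, and 6, 12 and 12 in controls. Rpl3l, known from heart and skeletal muscle, had 12, 24, 53, 18, 111 and 14 counts in tumors 1 to 6, 22, 42 and 62 in tumors 7 to 9, and 67, 37.0 and 38 in controls. It lay above the receptors' 95th percentile in tumors 3 and 5 and in no other library. It reached 0.627% to 3.69% of the TPM of Rpl3 in tumors 1 to 6, 20.7% to 57.3% in tumors 7 to 9, against 9.85% to 64.5% in controls. The higher ratios stood where the receptor genes were also higher. Rps27l, a p53 target, reached 95.8%, 95.7%, 30.2%, 43.0%, 39.0% and 23.8% of the TPM of Rps27 in tumors 1 to 6 and 91.3%, 24.2% and 25.4% in controls. Rps4l matched the symbol rule but had no protein-coding transcript in the files, and Rps4x, its X-linked relative, had 1.49% ± 0.350 (SD, n = 6) of the family in tumors 1 to 6. Rpl39 had 1.14% ± 0.478 in these tumors.

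Ribosomal proteins that the symbol rule leaves out were looked at beside the members. Fau, Rack1, Rpl22l1, Rpl36al and Rpl7l1 were not called by edgeR over all libraries, and 5 of 5 rose without tumors 7 to 9, against 19.6% of all tested genes, with a median log2 fold change of 3.53. Relative to the family, 0 of the 5 were then called higher and 2 lower, against 0.433% and 92.5% of all tested genes. Rpl22l1, the paralog that Rpl22 represses in mouse, reached 13.2%, 13.9%, 6.90%, 8.17%, 14.2% and 17.9% of the TPM of Rpl22 in tumors 1 to 6, 13.2%, 27.2% and 33.9% in tumors 7 to 9, and 19.0%, 44.2% and 57.9% in controls. Tumors 1 to 6 lay below all controls in this ratio. In controls 1 to 3, Rpl22l1 had 7.81, 18.2 and 13.0 TPM, near or below the receptors' 95th percentile of 14.2, 18.1 and 17.9 TPM. The part of this background in the control ratios was not tested.

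Other genes known for TOP messages were compared as neighbours of the family. Most act in translation, while Vim, an intermediate filament protein, and Hnrnpa1, a splicing factor, do not. None of 18 was called over all libraries, and 18 of 18 rose without tumors 7 to 9, against 19.6% of all tested genes. Their median log2 fold change was 4.28, against 3.80 for the ribosomal protein genes. Against 0.433% and 92.5% of all tested genes, 2 of the 18 were called higher and 2 lower relative to the family. Their summed TPM was 0.351 to 0.468 times that of the family in tumors 1 to 6, 0.195 to 0.454 times in tumors 7 to 9, against 0.197 to 0.213 times in controls. Eef1a1, the factor that brings aminoacyl-tRNA, was the largest of them in tumors 1 to 6. It equalled 20.3%, 17.3%, 22.6%, 26.4%, 21.5% and 17.8% of the family's TPM in tumors 1 to 6, 21.6%, 6.29% and 3.64% in tumors 7 to 9, and 5.06%, 7.43% and 7.05% in controls.

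Of 9 genes listed as regulators of TOP translation, 7 rose with TMM scaling and without tumors 7 to 9, against 19.6% of all tested genes. Among the 7 were Larp1 with a log2 fold change of 4.52 ± 0.45 (SE) and Mtor with 2.02 ± 0.40 (SE). Myc, which is a transcription factor but was kept in this list, had 5.67 ± 0.46 (SE). Eif4ebp1, a repressor of cap-dependent translation, had -0.53 ± 0.27 (SE) (edgeR adjusted p = 0.117), and Rps6kb2 had 1.05 ± 0.45 (SE) with an adjusted p of 0.0735. None of the 9 was called over all libraries. With the family total as library size, 1 was higher and 5 were lower in the same libraries, against 0.433% and 92.5% of all tested genes. The TPM of Mtor was likewise lower, 0.756 to 3.09 in tumors 1 to 6, against 5.31 to 6.18 in controls. These control values lay below the receptors' 95th percentile there, 14.2 to 18.1 TPM. Above it stood 1 of the 9 listed genes in each control, against 7 to 9 in tumors 1 to 6. The direction for this list depended on the scaling, and the part of the receptor background was not tested. Mitochondrial ribosomal protein genes gave 59 of 78 higher and 1 lower with TMM scaling and without tumors 7 to 9, against 19.6% and 20.3% of all tested genes, and none over all libraries. With the family total as library size, 0 were higher and 68 lower in the same libraries, against 0.433% and 92.5% of all tested genes. Their summed TPM was 150 to 593 in tumors 1 to 6, against 822 to 959 in controls. This sum was 0.0414 to 0.0694 times that of the cytosolic family in tumors 1 to 6 and 0.610 to 0.933 times in tumors 7 to 9. In controls it was 0.252 to 0.522 times, with no overlap between these sets. Of the 78 genes, 57 to 78 lay above the receptors' 95th percentile in tumors 1 to 6. Only 2 to 6 did so in tumors 7 to 9 and 3 to 7 in controls. Most of these genes thus stood at the receptor level there, and the part of this background in the sums was not tested.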

How the data were processed

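The authors deposited, for every transcript of each library, estimated counts and TPM, per the file headers. They were made with kallisto, and FastQC and mm10 are named as well, per the submitters' processing notes. Tool versions and the annotation release behind the index were not given in the sources used. Estimated counts were summed per gene and rounded. Coordinates came from GENCODE M21 on GRCm38, which is also called mm10, and 423 of 446 member transcripts matched it by identifier and length. Groups were taken from the titles.

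The test was edgeR 4.0.16 (quasi-likelihood, TMM factors, filterByExpr), in R 4.3.3, with Benjamini-Hochberg adjustment over all tested genes. A second fit used the family's summed counts as library size. It was tested on simulated data before use. DESeq2 1.42.0 and limma 3.58.1 served as alternatives. Copies were matched by symbol, 276 genes for 59 members, among them some without a -ps ending such as Rps12l1. Intervals are 95% Wilson and cover counting error only.

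Members, lists and the rule for named genes were chosen with earlier results of these data known. The rule named the T-ALL genes, the stalk and Rpsa, paralogs and partners, 8 disease or signaling members, and the 5 members at each end of share, SD and family-relative change. The split of the tumors is not in the labels, and the test on tumors 7 to 9 alone, the sums with copies and the GC correction were added after the data were seen. Results for some genes are not reported here.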

Additional observations from a re-analysis of the deposited data

Results flagged for a closer look

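In 81 sets of values, those of 77 members over tumors 1 to 6 and 4 library measures over 9 tumors, Dixon's gap ratio was computed on the log scale. It exceeded its critical value for 6 members, where chance flags about 1 in 20 sets. Tumor 5 was the distant library in 5 of these. It had the highest share of the family for Rpl37 (1.08%), Rpl35a (1.08%) and Rpl27 (0.786%), and the lowest for Rpl17 (0.420%) and Rpl35 (0.168%). Tumor 6 had the highest share of Rplp0 (2.16%). No cause was tested.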

How the results depend on the processing

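The number of members called turned on the libraries and the tool. Against 0 higher in all 12 libraries by edgeR, DESeq2 called 66, where 9.97% of all tested genes were higher. The fit without tumors 7 to 9 called 76, where 19.6% were higher. On log2(TPM + 1) limma called 4 lower, against 79.3% of all tested genes. On log2(TPM + 0.1) it called 4 lower, against 31026 of 40521 tested genes. Relative to the family, the fit without tumors 7 to 9 called 5 higher and 20 lower, against 0.433% and 92.5% of all tested genes. Leaving out each library in turn gave 0 to 0 calls in each direction, in both scalings, with medians of 3.07 to 3.72 under TMM factors and -0.247 to -0.147 relative to the family. The median log2 fold change of 3.54 was 1.06 with library totals, 0.0689 and 0.0273 with limma on log2(TPM + 1) and log2(TPM + 0.1), -0.22 with family totals and -0.65 with tumors 7 to 9 alone.

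Same-numbered tumor and control libraries had deviations that correlated at 0.0656, 0.0841 and -0.0939, so the numbers do not pair the libraries. Only numbers 1 to 3 occur in both groups, so a replicate block takes the difference from tumors 1 to 3 and the controls alone. With it edgeR called 76 members higher, against 20.7% of all tested genes, and relative to the family 4 higher and 16 lower, against 0.467% and 92.2%.

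Signs changed for single genes. With family totals the log2 fold change was -0.39 for Rpl5, -1.52 for Rpl10, -0.35 for Rpl11 and -0.0905 for Rpl22. With tumors 7 to 9 alone it was -0.11, -1.12, -0.84 and -0.62 in the same order. With limma on log2(TPM + 1) it was -0.31 for Rpl5, -2.04 for Rpl10 and -0.63 for Rpl11, and on log2(TPM + 0.1) it was -0.38, -2.20 and -0.66. For Rpl10 it was also -1.42 with library totals, -0.47 with nuclear protein-coding totals, -0.0061 with the stricter filter and -0.51 with protein-coding transcripts. The causes were not tested.

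On protein-coding transcripts the family took 0.0402% of tumors 7 to 9, and by TPM 0.260% of controls. By counts the ratio of large to small subunit was 1.83 in tumors 1 to 6. By biotype, pseudogenes held 20.9% as many counts as the members in controls. The median SD was 0.45 against the median member, 0.49 with protein-coding transcripts, and 0.35 to 0.43 with each tumor left out. The highest share of any member ran from 4.66% to 5.45% with each tumor left out. By mean TPM over the libraries no member was under 1% of the family median, so that alternative changed nothing. In controls and tumors 7 to 9, low members sit at the receptor background.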
